A study of Mus musculus with 6 samples.

Results

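Genes of the alveolar type 2 cell were followed in the lungs of *Clec7a* knockout (KO) and wild-type (WT) mice that had received bleomycin. The 10 genes were taken by symbol from the count table, which has 26100 rows: *Sftpc*, *Sftpb*, *Sftpa1* and *Sftpd* for the surfactant proteins, *Abca3*, *Lamp3*, *Napsa* and *Lpcat1* for the lamellar body and for surfactant maturation and lipid, *Slc34a2* for phosphate transport and *Etv5* for type 2 cell identity. Each symbol matched 1 row, and all 10 genes were among the 16633 rows tested. The KO group was 3 *Clec7a* knockout mice and the WT group 3 wild-type mice, all given bleomycin into the trachea and sampled at day 14 as lung tissue. *Clec7a* encodes dectin-1, a receptor of myeloid cells for fungal beta-glucan, and bleomycin damages DNA and injures the alveolar epithelium before scarring follows. Both groups carried the injury, uninjured lungs were not analysed here, and neither strain nor age is named in the sources used here. The libraries were made from total lung RNA, so fewer type 2 cells and less RNA per cell cannot be told apart in any value below.

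Type 2 cells line the alveolus together with the flat type 1 cells, and they make surfactant, the film of phospholipid and protein that lowers surface tension at the air boundary. They pack it into lamellar bodies, organelles related to lysosomes, where lipid is pumped in and the proteins are cut to their mature form. They also divide and give rise to type 1 cells after injury. The transcription factor NKX2-1 is known to act on the promoters of the surfactant protein genes in mouse and human.

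The start regions of 3 genes are shown because they set the most different member of this group, *Lamp3*, beside the surfactant protein genes *Sftpa1* and *Sftpb*. Each line gives the 250 bases before the RefSeq start of transcription, 5′ to 3′ on the strand of the gene, from RefSeq on GRCm38.p6. Capitals mark every match on either strand to CTCAAG or CAAGTG, short forms of the NKX2-1 site, and to TGTTTAC, a short form of the FOXA site. *Sftpa1* lies at chr14:41131538-41131787 on the plus strand, *Sftpb* at chr6:72304360-72304609 on the plus strand and *Lamp3* at chr16:19706366-19706615 on the minus strand.
Sftpa1: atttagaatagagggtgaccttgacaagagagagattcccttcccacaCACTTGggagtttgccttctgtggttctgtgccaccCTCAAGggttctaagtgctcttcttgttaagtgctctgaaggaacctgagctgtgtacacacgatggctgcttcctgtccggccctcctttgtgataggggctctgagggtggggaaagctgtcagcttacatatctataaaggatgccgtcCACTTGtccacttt
Sftpb: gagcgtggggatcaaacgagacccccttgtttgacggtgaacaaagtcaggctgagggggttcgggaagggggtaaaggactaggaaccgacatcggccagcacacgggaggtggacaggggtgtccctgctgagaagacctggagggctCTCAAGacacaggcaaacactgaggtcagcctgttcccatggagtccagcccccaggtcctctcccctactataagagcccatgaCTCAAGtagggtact
Lamp3: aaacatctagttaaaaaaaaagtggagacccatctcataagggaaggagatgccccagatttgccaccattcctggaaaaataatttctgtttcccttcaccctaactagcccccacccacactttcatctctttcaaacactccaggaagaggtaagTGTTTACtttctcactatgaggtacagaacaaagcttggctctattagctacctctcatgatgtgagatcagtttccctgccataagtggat
*Sftpa1* held 3 matches to the NKX2-1 forms, which began at positions -202, -166 and -14 from the start, and *Sftpb* held 2, at -100 and -15. *Lamp3* held 0 of these and 1 match to the FOXA form at -92. The windows of *Abca3*, *Slc34a2*, *Etv5* and *Lpcat1* held 0 matches to the NKX2-1 forms as well, so their absence does not set *Lamp3* apart. Of all 32851 RefSeq windows of that length, 22.6% held either NKX2-1 form and 3.17% held the FOXA form. RefSeq windows were matched for 7 of the 10 genes, 8 windows in all. These were all but *Sftpc*, *Sftpd* and *Napsa*. The forms CTCAAG and CAAGTG share the letters CAAG and can overlap, which they did in none of these windows. Further forms were searched on both strands of all 8. CCGGAA for ETS factors, held by 12% of all windows, matched *Abca3* at -156. TTGCNNAA for C/EBP factors, held by 9.56%, matched *Slc34a2* at -48. TATAAA, held by 12.4%, matched *Sftpa1* at -30, TGTTTAC matched *Etv5* at -183, and AGATAA for GATA factors, held by 9.99%, had no match. These are matches of letters only.

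The KO label held in the data: *Clec7a* had 3.6, 6.85 and 2.84 CPM (counts scaled to library size with TMM factors) in KO replicates 1 to 3, against 60.6, 84.0 and 196.5 CPM in WT replicates 1 to 3. Library totals were 31052936 to 34451956 counts. Both libraries numbered 1 were unlike the remaining 4. Spearman correlations over the tested genes were 0.924 to 0.947 for pairs that held a first replicate and 0.959 to 0.992 for pairs that held none, and mitochondrial transcripts took 7.34% of the counts in KO replicate 1, against 2.69% to 3.87% in the other 5 libraries. The genotype comparison is therefore given with and without these libraries.

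The lung label was met by the type 2 genes themselves. On the FPKM scale of the deposited table, which divides by gene length and so allows different genes to be compared, *Sftpc* averaged 8283 ± 7456 FPKM in KO and 2947 ± 2648 FPKM in WT lungs (SD, n = 3 each), and its mean lay above 99.98% of the tested genes. *Sftpb* came next in both genotypes, at 803.0 ± 389.0 FPKM in KO and 706.8 ± 697.3 FPKM in WT, then *Sftpd* at 454.0 ± 366.7 and *Sftpa1* at 436.5 ± 284.2 FPKM in KO, against 235.8 ± 247.3 and 166.0 ± 161.2 FPKM in WT. *Etv5* was lowest, at 15.3 ± 5.5 FPKM in KO and 10.04 ± 0.39 FPKM in WT. Between neighbours in this order the ranges of the libraries overlapped in both genotypes, except that *Etv5* lay below its neighbour in both and *Sftpc* lay above *Sftpb* in KO. *Lamp3* changed place most, at rank 7 of the 10 in KO with 115.1 ± 69.03 FPKM and at rank 9 in WT with 20.3 ± 8.3 FPKM.

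*Sftpc*, for the small hydrophobic surfactant protein C, a defining marker of type 2 cells, had 13701, 1712 and 4898 CPM in KO replicates 1 to 3, against 5294, 1411 and 938.1 CPM in WT replicates 1 to 3. The first replicate was the highest of each genotype, KO replicate 2 was close to WT replicate 2, and the groups overlapped. The spread within a genotype was 8.003-fold from the lowest to the highest KO lung and 5.64-fold in WT, and the log2 fold change (KO minus WT here and below) was 1.41 ± 0.94 (edgeR, SE). *Sftpc* alone took 67.7% of the counts of the 10 genes in KO replicate 1 and between 44.6% and 48.7% in the other 5 libraries.

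*Sftpb* encodes surfactant protein B, which is needed for lamellar bodies and is made by secretory airway cells as well as type 2 cells. It had 1323, 551.7 and 1681 CPM in KO replicates 1 to 3, against 2409, 582.1 and 318.2 CPM in WT replicates 1 to 3. WT replicate 1 held the highest value of the 6 lungs, the groups overlapped, and the log2 fold change was 0.10 ± 0.80. WT replicate 1 was also the library with the most secretory airway RNA. The 10 markers of those cells, led by the secretoglobin gene *Scgb1a1*, summed to 2748, 2134 and 4963 CPM in KO replicates 1 to 3, against 12719, 1326 and 614.8 CPM in WT replicates 1 to 3, and none of the 10 was at 0 in any library. *Scgb1a1* itself had 1124 to 3618 CPM in KO, against 10244, 843.2 and 250.4 CPM in WT replicates 1 to 3. The part of airway cells in the level of *Sftpb* was not tested.

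The collectin genes of surfactant, *Sftpa1* at chr14:41131782-41136452 and *Sftpd* at chr14:41172214-41185149 (GRCm38, GENCODE M21), code for proteins that bind microbial sugars. *Sftpa1*, for surfactant protein A, had 1935, 365.0 and 1229 CPM in KO replicates 1 to 3, against 963.5, 202.5 and 186.8 CPM in WT replicates 1 to 3. *Sftpd*, for surfactant protein D, had 1132, 164.2 and 493.7 CPM in KO, against 740.6, 152.8 and 95.1 CPM in WT, in the same order of replicates. KO replicate 1 was the highest lung for both, WT replicate 1 lay above KO replicate 2 for both, and so the groups overlapped. The log2 fold changes were 1.38 ± 0.85 for *Sftpa1* and 0.86 ± 0.95 for *Sftpd*.

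*Lamp3*, a membrane glycoprotein of lamellar bodies, had the largest fold change of the 10 members. The gene lies at chr16:19653378-19706375 on the minus strand (GRCm38, GENCODE M21). It had 638.2, 149.3 and 403.4 CPM in KO replicates 1 to 3, against 109.4, 65.5 and 44.6 CPM in WT replicates 1 to 3. Every KO lung lay above every WT lung, and the lowest KO value was 1.37 times the highest WT value. The means were 397.0 ± 244.5 CPM in KO and 73.2 ± 33.0 CPM in WT (SD, n = 3 each). The ratio of the means was 5.43, and the log2 fold change was 2.44 ± 0.60. edgeR's unadjusted p was 0.0053 and its Benjamini-Hochberg adjusted p over all genes was 0.245, so the gene did not pass, whereas DESeq2 gave an adjusted p of 0.00155. Of the 10 members *Lamp3* was the 1 gene without overlap between the groups. This share is near the background, since 9.81% of all tested genes had every KO value above every WT value.

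LAMP3 is known in human as a marker of mature dendritic cells also, so their genes were read beside it. The 10 markers of these cells, a list chosen after the values were seen, summed to 317.9, 453.0 and 425.9 CPM in KO replicates 1 to 3, against 323.3, 378.4 and 428.0 CPM in WT replicates 1 to 3, with no marker at 0. These sums are carried by *Cd200*, *Socs2* and *Fscn1*. With each gene weighted alike, on log2 CPM centred on the 6 lungs, the list stood at 0.038, 0.63 and 0.51 in KO, against -0.72, -0.51 and 0.044 in WT, so that KO replicate 1 and WT replicate 3 overlapped. Of the 10 genes 7 had a positive estimate (median 0.62, and 0.39 without WT replicate 1 and 0.21 with a filter of 1 CPM in 3 libraries). In edgeR 0 passed and 2 had an unadjusted p under 0.05, against 11.8% of all tested genes. DESeq2 called 2, against 3.63% of the genes it tested. The chemokine genes *Ccl22* and *Ccl19* and the cytokine gene *Il12b*, 3 of the 10, lay higher in every KO lung, against 9.81% of all tested genes. Of these *Ccl19* and *Il12b* were low in every lung. *Ccl22* had 33.1 to 48.7 CPM in KO, against 11.7 to 26.1 CPM in WT, *Ccl19* had 0.92 to 1.17 CPM in KO, against 0.15 to 0.40 CPM in WT, and *Il12b*, named after its values were seen, had 1.93 to 3.87 CPM in KO, against 0.061 to 1.78 CPM in WT. The part of these cells in the level of *Lamp3* was not tested.

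The other 3 genes of the lamellar body and of surfactant maturation and lipid moved over a narrower range. *Abca3*, the pump that loads phospholipid into lamellar bodies, had 190.5, 177.5 and 380.8 CPM in KO replicates 1 to 3, against 226.9, 132.7 and 112.6 CPM in WT replicates 1 to 3. *Napsa*, the aspartic protease that processes surfactant protein B, had 293.5, 124.5 and 231.6 CPM in KO, against 318.0, 123.4 and 100.04 CPM in WT. *Lpcat1*, the acyltransferase that makes the saturated phosphatidylcholine of surfactant, had 243.2, 129.1 and 251.5 CPM in KO, against 212.9, 120.6 and 104.1 CPM in WT. In all 3 WT replicate 1 lay above KO replicate 2, so the groups overlapped, and for *Napsa* it was the highest of the 6 lungs. The log2 fold changes were 0.67 ± 0.41 for *Abca3*, 0.26 ± 0.52 for *Napsa* and 0.51 ± 0.38 for *Lpcat1*. For *Abca3*, KO replicate 1 held 0.50 times the level of KO replicate 3, the lowest such ratio among the 10 genes.

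*Slc34a2*, the sodium-phosphate transporter of the type 2 cell surface, had 708.4, 326.9 and 932.9 CPM in KO replicates 1 to 3, against 549.5, 236.0 and 165.0 CPM in WT replicates 1 to 3. *Etv5*, an ETS transcription factor that maintains type 2 identity in mouse, had 65.8, 37.4 and 81.8 CPM in KO, against 44.6, 43.2 and 39.6 CPM in WT. Both overlapped between the groups through KO replicate 2, which for *Etv5* was below every WT lung. The log2 fold changes were 1.05 ± 0.57 and 0.54 ± 0.29. *Etv5* was the steadiest member in WT, where its coefficient of variation was 6.09%, against 36.5% in KO and against 38.8% to 108.4% for the other 9 members in WT.

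**Figure D1:**
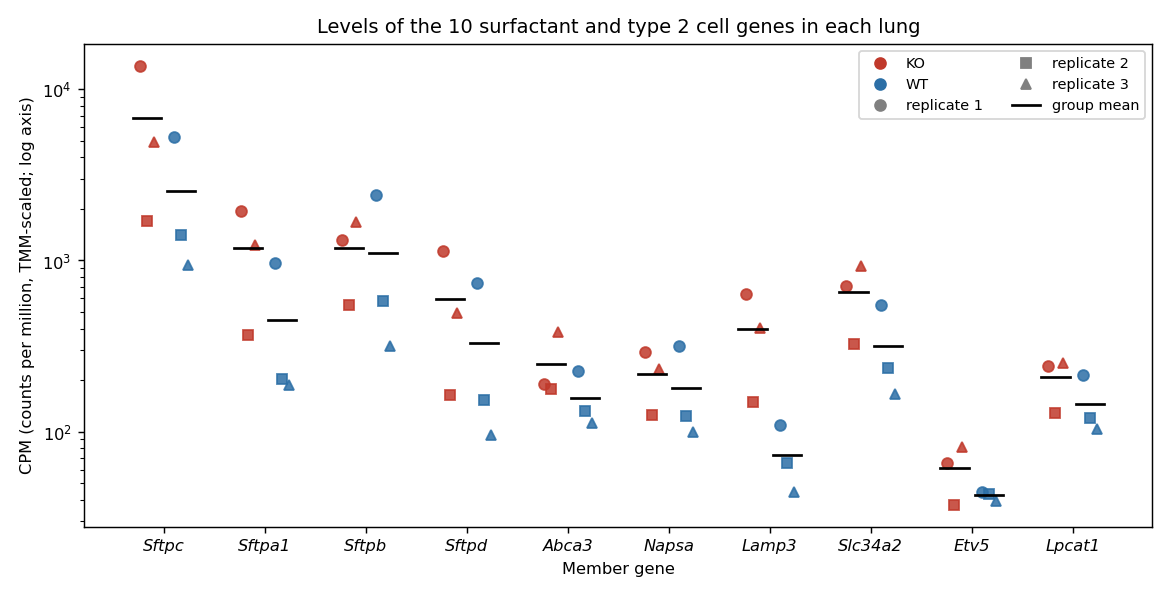
CPM (TMM-scaled, log axis) of each of the 10 genes in each lung, with KO left of WT, marker shape for the replicate and a black bar for the group mean; levels are not divided by gene length. *Lamp3* is the gene whose KO points, 149.3 to 638.2 CPM, all lie above its WT points, 44.6 to 109.4 CPM.

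Over the group, 10 of 10 genes had a positive estimate with a median log2 fold change of 0.76, while over all tested genes 49% were positive and the median was -0.01. The 10 genes share their cells, so they are not separate observations of the genotypes. None of the 10 passed edgeR's threshold of 0.05 on adjusted p (0.245 to 0.976), nor did any of the 16633 genes tested (0%). At an unadjusted p under 0.05, edgeR had 1 member, *Lamp3*, and 11.8% of all genes in either direction (5.95% higher in KO). DESeq2 called 1 member, again *Lamp3*, and 3.63% of the genes it tested (1.91% higher in KO), limma-voom called 0, and limma-voom with sample weights called *Lamp3* and 13.4% of all genes (7.24% higher in KO). Library scaling by DESeq2 size factors or by total counts alone left 10 of 10 estimates positive.

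The size of the difference depended on single libraries, and most on WT replicate 1. Without WT replicate 1 the median of the 10 genes was 1.55, and 8 of them had an unadjusted p under 0.05, where 8.86% of all genes were higher in KO at that level and 52% had a positive estimate. *Sftpa1* was then at 2.59 ± 0.73, *Sftpc* at 2.53 ± 0.94, *Sftpd* at 2.27 ± 0.83 and *Sftpb* at 1.40 ± 0.56 (SE), and the adjusted p of the 10 genes was 0.219 to 0.462 in edgeR. Without KO replicate 1 the median was 0.44, *Sftpc* was at 0.38, *Sftpd* at -0.00049 and *Napsa* at -0.018, and *Lamp3* was still at 1.92. The median was 1.08 without KO replicate 2, 0.53 without KO replicate 3, 0.56 without WT replicate 2 and 0.48 without WT replicate 3. Without both first replicates it was 1.37 with 10 of 10 positive. *Sftpb* turned below 0 without KO replicate 3 (-0.23), WT replicate 2 (-0.21) or WT replicate 3 (-0.33), and *Napsa* without WT replicate 3 (-0.026).

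**Figure D2:**
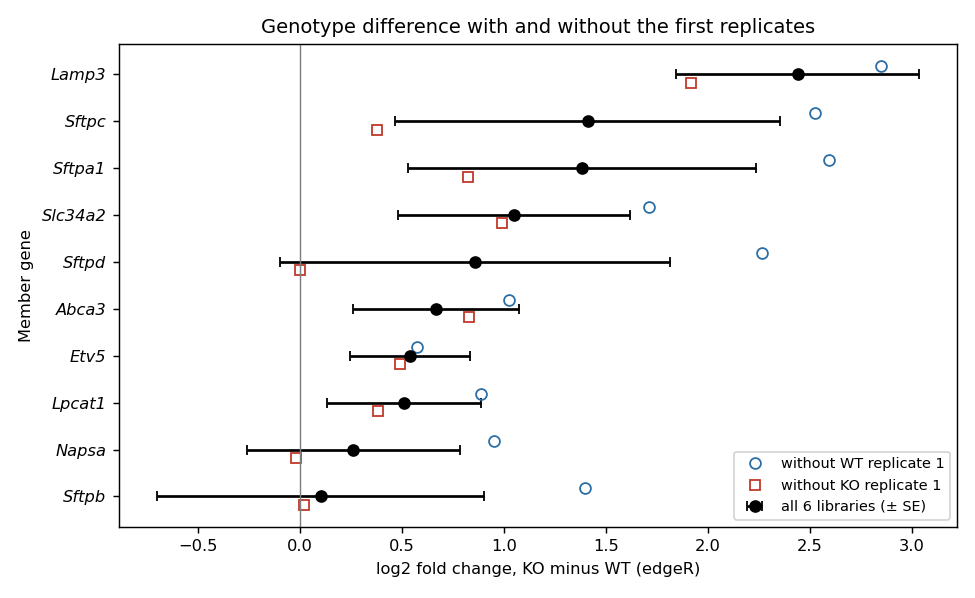
edgeR log2 fold change (KO minus WT) of each gene with all 6 libraries (black, bars are SE), without WT replicate 1 (open blue circles) and without KO replicate 1 (open red squares). *Lamp3* stays between 1.92 and 2.85 in these 3 fits, while *Sftpd* lies between -0.00049 and 2.27.

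The 10 genes varied together from lung to lung. In the WT group replicate 1 was highest and replicate 3 lowest for all 10, and in the KO group replicate 2 was lowest for all 10, with KO replicate 1 highest for 5 and KO replicate 3 highest for 5. WT replicate 3 was the lowest of all 6 lungs for 9 genes, and KO replicate 2 for *Etv5*. The mean of the 10 genes in log2 CPM, each centred on its own mean over the 6 lungs, was 1.09, -0.48 and 0.87 in KO replicates 1 to 3, against 0.55, -0.80 and -1.22 in WT replicates 1 to 3, so that the groups overlapped through KO replicate 2 and WT replicate 1. Together the 10 genes took 1.99%, 0.383% and 1.11% of all counts in the KO libraries, against 1.05%, 0.301% and 0.209% in the WT libraries. *Slc34a2* followed the mean of the other 9 most closely (root mean square difference 0.22 log2 units), and *Lamp3* least (0.78).

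Among genes outside the group, the profiles nearest to this mean were ranked over 10205 named genes of at least 10 CPM, by the root mean square difference over the 6 lungs. *Mlc1*, for a membrane protein known from brain astrocytes, was nearest at 0.11 log2 units, and *Nkx2-1*, for the lung epithelial transcription factor named above, was next at 0.14. *Car8*, *Gramd2*, *Sh2d4a* and *Cxadr* followed at 0.16 to 0.17. The median over all these genes was 0.94 and the lowest 5% began at 0.60, and small values at the top of such a ranking follow from the choice among many genes. *Nkx2-1* had 100.3, 35.6 and 75.2 CPM in KO replicates 1 to 3, against 84.2, 29.5 and 21.4 CPM in WT replicates 1 to 3. Its log2 fold change was 0.64 ± 0.60 (edgeR adjusted p 0.726). The nearest 100 genes held 3 of 15 other type 2 genes, 3 of 12 type 2 regulators, 4 of 14 type 1 genes and 1 of 7 general epithelial genes, and 0 of the 10 secretory airway, 9 fibroblast and 10 alveolar macrophage genes.

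Scar genes had another pattern over the same lungs, and airway genes had another pattern over the KO lungs. The list of 9 fibroblast and matrix genes, such as the collagen gene *Col3a1* and the fibronectin gene *Fn1*, stood at -1.59, 0.53 and -0.29 in KO replicates 1 to 3 on the centred log2 scale, against -0.47, 0.81 and 1.014 in WT replicates 1 to 3. The lung with the highest type 2 mean, KO replicate 1, had the lowest fibroblast mean, and the lung with the lowest type 2 mean, WT replicate 3, had the highest. *Fn1* had 789.9, 7284 and 3994 CPM in KO, against 1928, 12078 and 12374 CPM in WT, and *Col3a1* had 1107, 4816 and 2920 CPM in KO, against 1927, 5858 and 6235 CPM in WT. All 9 fibroblast genes had negative estimates (median -0.79, and -1.71 without KO replicate 2, -0.56 without KO replicate 1 and -0.58 without WT replicate 3). In edgeR 0 passed and 1 had an unadjusted p under 0.05, against 11.8% of all tested genes, and DESeq2 called 0. The part of this shift in the type 2 values was not tested. The airway list stood at -0.71, 0.77 and 1.04 in KO replicates 1 to 3, against 2.46, -1.41 and -2.15 in WT replicates 1 to 3. It fell from WT replicate 1 to WT replicate 3, as the type 2 mean did. Among the KO lungs it was lowest in replicate 1, where the type 2 mean was highest.

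**Figure D3:**
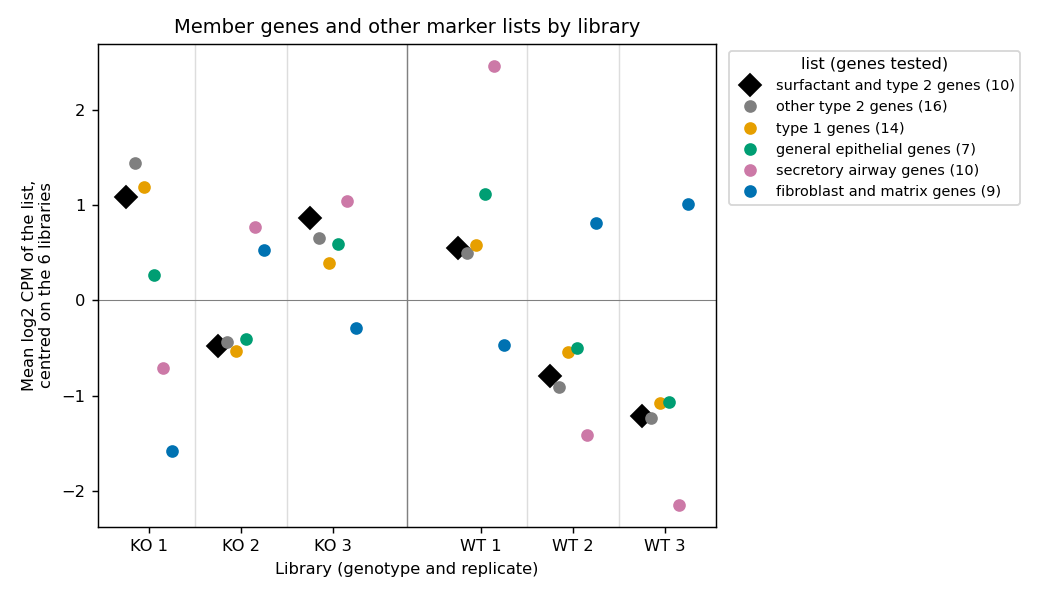
Mean log2 CPM of 6 gene lists in each library, centred on the mean of the 6 libraries, with the 10 surfactant and type 2 genes as black diamonds. The type 1 and other type 2 lists lie near the diamonds, while the fibroblast list is lowest in KO replicate 1 (-1.59) and highest in WT replicate 3 (1.014).

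Within each lung *Lamp3* took a different place among the 10 genes in the 2 genotypes. Relative to the mean of the other 9 members in log2 CPM, *Lamp3* stood at -0.06, -0.64 and -0.54 in KO replicates 1 to 3, against -2.28, -1.61 and -1.76 in WT replicates 1 to 3, a difference of 1.47 in which every KO lung was above every WT lung. Among all tested genes set against the mean of the members, 0.391% lay higher in KO without overlap. The members had a median log2 fold change of 0.76, so setting other genes against their mean moves those genes lower in KO. The small share is therefore no measure of how rare the place of *Lamp3* is. *Napsa* stood at -1.30, -0.93 and -1.43 in KO, against -0.57, -0.59 and -0.46 in WT, a difference of -0.68 without overlap. This was 1 of the 10 members, and 10.5% of all tested genes did the same. That share comes from the same shifted scale, so it is no measure either. The place of *Napsa* is therefore not read as a result. The other 8 members overlapped between the genotypes on this scale. These values are not divided by gene length, and they are a description without a test.

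**Figure D4:**
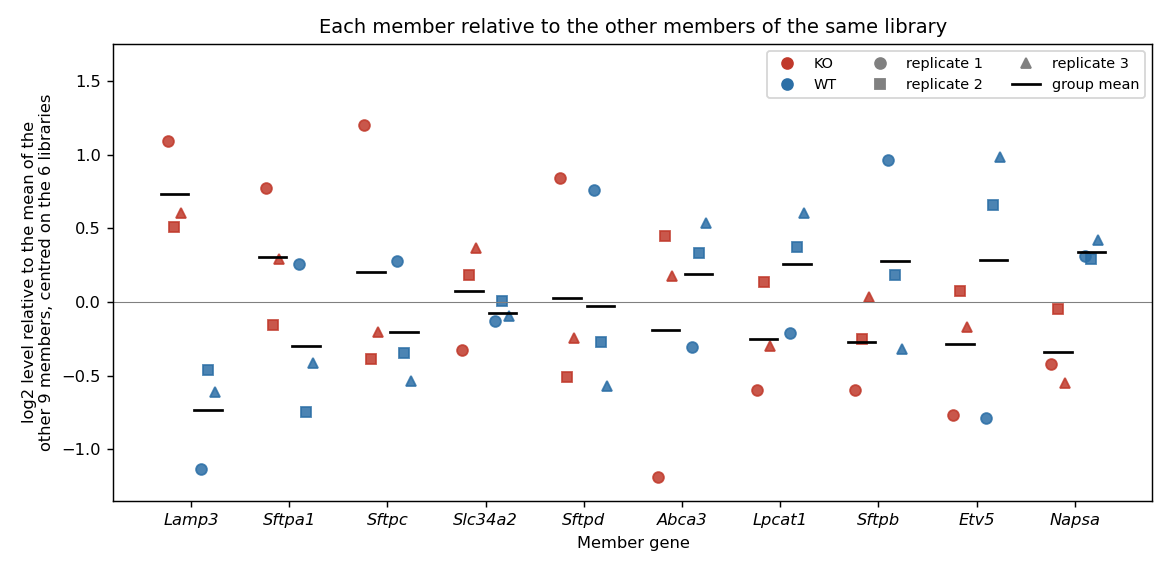
log2 CPM of each gene minus the mean of the other 9 genes in the same library, centred on the 6 libraries, with KO left of WT and a black bar for the group mean. *Lamp3*, at the left, and *Napsa*, at the right, are the genes whose KO and WT points do not overlap, with mean differences of 1.47 and -0.68.

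The genes were also set against 7 genes of epithelial cells in general, among them *Cdh1* and *Spint2*, a scale chosen after the data were seen. These 7 genes stood at 0.27, -0.41 and 0.59 in KO replicates 1 to 3 on the centred log2 scale, against 1.11, -0.50 and -1.07 in WT replicates 1 to 3, highest in WT replicate 1. The mean of the 10 members minus that of the 7 genes was 0.82, -0.08 and 0.27 in KO replicates 1 to 3, against -0.56, -0.30 and -0.15 in WT replicates 1 to 3. On this scale 3 of the 10 members, *Lamp3*, *Sftpa1* and *Slc34a2*, lay higher in every KO lung than in any WT lung, and 1.66% of all tested genes did so. No member lay lower in every KO lung, which 3.05% of all tested genes did. Before this scaling the shares over all tested genes were 9.81% higher and 11.3% lower in every KO lung. Subtracting the 7 genes adds their spread to genes that do not follow them. The small shares are therefore no measure of how rare the place of the 3 members is. The difference was 2.00 for *Lamp3*, 1.22 for *Sftpa1* and 0.81 for *Slc34a2*. *Napsa* and *Sftpb*, at 0.06 and 0.18, differed by less than their SDs of 0.25 to 0.37.

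Other genes of the type 2 cell were read from the same fit. Of 16 further type 2 genes 14 had a positive estimate, with a median of 1.06 (0.37 without KO replicate 1 and 1.92 without WT replicate 1). None passed edgeR, 7 had an unadjusted p under 0.05, all higher in KO, and DESeq2 called 4. Over all tested genes 5.95% were higher in KO at that unadjusted p, and DESeq2 called 1.91% higher. The 16 genes were listed with earlier results of these data known, and they share their cells with the members. Their counts are therefore a description and no separate support. The lung chemokine gene *Cxcl15* had 2171, 417.0 and 1194 CPM in KO replicates 1 to 3, against 788.6, 237.5 and 160.1 CPM in WT replicates 1 to 3, and its groups overlapped. *Hc*, for complement C5, had 296.7, 97.0 and 290.4 CPM in KO, against 30.6, 29.2 and 27.6 CPM in WT, and *Il33*, for an alarmin cytokine, had 220.3, 59.9 and 156.3 CPM in KO, against 45.7, 31.8 and 32.0 CPM in WT. Both were higher in every KO lung, like *Lamp3*, and both were lowest in KO replicate 2 among the KO lungs, like all 10 members. The likeness did not extend to the WT lungs. There *Il33* was lowest in replicate 2, whereas all 10 members were lowest in replicate 3, and *Hc* moved only between 27.6 and 30.6 CPM. Of the 16 genes 3 were higher in every KO lung, against 9.81% of all tested genes. *Ctsh*, the cathepsin that takes part in cutting surfactant protein B and that macrophages make too, went the other way in estimate, with 598.0, 348.3 and 412.6 CPM in KO, against 1797, 547.6 and 416.8 CPM in WT (log2 fold change -1.02 ± 0.59).

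The enzymes of surfactant lipid supply gave no common direction. Of 20 genes 13 had a positive and 7 a negative estimate, with a median of 0.27, and 0 passed edgeR. At an unadjusted p under 0.05 edgeR had 3, against 11.8% of all tested genes, and DESeq2 called 0. The desaturase gene *Scd1* had 2649, 1078 and 3000 CPM in KO replicates 1 to 3, against 1440, 642.3 and 570.2 CPM in WT replicates 1 to 3 (log2 fold change 1.34 ± 0.54), and the fatty acid elongase gene *Elovl1* had 445.4, 164.2 and 322.7 CPM in KO, against 170.3, 133.0 and 124.9 CPM in WT (1.12 ± 0.38). *Pcyt1a*, the rate-limiting enzyme of phosphatidylcholine synthesis, was lower in every KO lung, as were 11.3% of all tested genes. Its fold change was small, with 99.8 to 110.0 CPM in KO, against 136.0 to 141.0 CPM in WT (-0.41 ± 0.15, edgeR unadjusted p 0.030 and adjusted p 0.372). *Prdx6*, which degrades and repairs surfactant phospholipid, differed by -0.04 ± 0.70.

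Of 15 regulators of type 2 cells that were tested, 11 had a positive estimate, with a median of 0.29 (1.06 without WT replicate 1 and 0.037 without WT replicate 3). In edgeR 0 passed and 2 had an unadjusted p under 0.05, against 11.8% of all tested genes. DESeq2 called 1, against 3.63% of the genes it tested. *Fgfr2*, the receptor through which fibroblast growth factors keep type 2 cells, had 77.4, 44.2 and 86.0 CPM in KO replicates 1 to 3, against 48.9, 31.4 and 22.5 CPM in WT replicates 1 to 3 (log2 fold change 1.02 ± 0.37), and its groups overlapped. *Etv4*, the close relative of *Etv5*, was lower in every KO lung, at 0.98, 5.39 and 4.07 CPM in KO, against 11.9, 13.4 and 16.8 CPM in WT (-2.01 ± 0.59, edgeR adjusted p 0.292, DESeq2 adjusted p 0.0188), whereas *Etv5* had a positive estimate. *Adgrf5*, the receptor that limits the surfactant pool and is made by endothelium as well, and *Nfib* differed by 0.57 ± 0.44 and 0.16 ± 0.23. On the side of clearance, 7 of 9 genes by which alveolar macrophages take up and break down surfactant had a positive estimate (median 0.47, 0 past edgeR, 1 at an unadjusted p under 0.05, DESeq2 0). That direction rested on the first replicates: the median was 0.16 without WT replicate 1, 0.18 without KO replicate 1, -0.033 without both and 0.040 in limma-voom with sample weights. The lipid receptor gene *Cd36* was higher in every KO lung, at 1239 to 1290 CPM in KO, against 510.4 to 927.2 CPM in WT (0.71 ± 0.29, edgeR adjusted p 0.419). Which cells of the lung gave this *Cd36* RNA was not tested.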

How the data were processed

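Lung RNA of 6 mice, 3 KO and 3 WT, was sequenced, and the gene table was used as it was deposited. The authors deposited whole-number counts for each gene, not normalized. A second deposited table held FPKM values, whose KO columns carry a suffix that no label explains and so were used without replicate numbers. HISAT2 2.0.4, StringTie 1.3.4d and GRCm38 appear, with no role, among the submitters' processing notes, and no source used here gives strand or counting settings. *Abca3*, *Napsa* and *Slc34a2* overlap noncoding genes of GENCODE M21 on the other strand, whose reads cannot be told apart from theirs.

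edgeR 4.0.16 (R 4.3.3) kept rows by filterByExpr, scaled libraries by TMM and ran its robust quasi-likelihood test on genotype alone. P-values were adjusted by Benjamini-Hochberg across the 16633 rows (threshold 0.05). An SE is the size of the log2 fold change divided by the root of F. log2 CPM used a prior count of 2. Alternatives were DESeq2 1.42.0, limma-voom from limma 3.58.1, both plain and with sample weights, other scaling, filters and prior, a replicate block, limma on log2(FPKM + 1) and log2(FPKM + 0.1), and libraries left out. The scripts were tested on simulated data. Named from each list were its 2 genes of highest mean CPM and its 2 of smallest p, of which the text gives those it needs; *Nkx2-1* and the 5 others of nearest profile were named by rank. Lists cover other type 2, lipid supply, regulator, clearance, type 1, transitional, secretory airway, ciliated, general epithelial, alveolar macrophage, endothelial, fibroblast and mature dendritic cell genes. Members and lists were chosen with earlier results of these data known. Samples are separate mice by the design text.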

Additional observations from a re-analysis of the deposited data

How the results depend on the processing

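Of 190 member estimates under the 19 alternatives, 182 kept their sign and their side of the threshold, 6 changed sign (*Sftpb* -0.23, -0.21 and -0.33 without KO replicate 3, WT replicate 2 and WT replicate 3, *Sftpd* -0.00049 without KO replicate 1, and *Napsa* -0.018 and -0.026 without KO replicate 1 and WT replicate 3), and 2 passed the threshold, both *Lamp3* (DESeq2 and limma-voom with sample weights, adjusted p 0.00155 and 0.0262). The count of members past the threshold was 0 in the remaining alternatives, and the adjusted p of *Lamp3* over all alternatives was 0.00155 to 0.763. The number of genes called over the whole table was 0 in edgeR, 678 in DESeq2, 2221 in limma-voom with sample weights, 46 without both first replicates and 0 to 3 with 1 library left out. The cause of these differences was not tested. With 1 library left out, 8 to 10 members had a positive estimate, the median was 0.44 to 1.55, *Sftpb* was at -0.33 to 1.40, *Sftpd* at -0.00049 to 2.27 and *Napsa* at -0.026 to 0.95, and the number of members called was 0. The replicate block (replicate number as a term) gave 0 genes called, a member median of 0.82 and an adjusted p of 0.151 for *Lamp3*; deviations of same-numbered lungs correlated at 0.351, 0.35 and -0.099, so the numbers were not taken as pairs, and not every lung correlated best with its own number. Fold changes from FPKM, where low genes are understated, gave member medians of 0.89 and 0.90. Counting error is small for these genes, since every member had at least 1255 counts in each library, and the spread between lungs limits the comparison.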

Other observations

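Markers of transitional injured epithelium, a state that type 2 cells pass through after bleomycin, had a positive estimate in 4 of 15 genes and a median log2 fold change of -0.58, which was 0.52 without WT replicate 1, 0.37 without both first replicates and 0.063 in limma-voom with sample weights. The galectin gene *Lgals3* had 484.3, 293.6 and 211.0 CPM in KO replicates 1 to 3, against 1041, 377.3 and 365.3 CPM in WT replicates 1 to 3 (-0.85 ± 0.52), and the keratin gene *Krt7* had 1004, 195.7 and 401.2 CPM in KO, against 1458, 375.4 and 214.2 CPM in WT (-0.35 ± 0.86). The growth factor gene *Mdk* was higher in every KO lung, at 14.7, 21.1 and 11.1 CPM in KO, against 6.08, 6.36 and 10.4 CPM in WT (1.04 ± 0.35, edgeR adjusted p 0.340).

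Of 14 type 1 genes 12 had a positive estimate (median 0.60, and 0.13 without KO replicate 1, 0.32 without WT replicate 3, 0.91 without KO replicate 2 and 1.18 without WT replicate 1). *Rtkn2*, a type 1 marker, was higher in every KO lung, at 286.7, 55.3 and 115.5 CPM in KO, against 50.03, 22.4 and 14.7 CPM in WT (2.39 ± 0.72, edgeR adjusted p 0.297, DESeq2 adjusted p 0.0133), while *Ager*, the most used marker of these cells, differed by 0.42 ± 0.77. Of 13 alveolar macrophage genes 8 had a positive estimate (median 0.61, and 0.099 without KO replicate 1, 0.19 without both first replicates and 1.06 without WT replicate 3), with *Car4* higher in every KO lung at 78.3 to 119.8 CPM, against 30.2 to 52.4 CPM in WT, and *Chil3* at 324.6 to 1140 CPM in KO, against 1027 to 1790 CPM in WT. *Car4* is made by capillary endothelium too, and of 7 endothelial genes 6 had a positive estimate (median 0.34, and -0.021 without WT replicate 1). Ciliated cell genes had 9 of 10 positive (median 0.23, and 1.80 without WT replicate 1, 1.94 without both first replicates, and -0.12, -0.045 and -0.18 without KO replicate 3, WT replicate 2 and WT replicate 3), secretory airway genes 3 of 10 (median -0.41, and 2.61 without WT replicate 1) and general epithelial genes 3 of 7 (median -0.0058, and 0.95 without WT replicate 1). In these 7 lists edgeR called 0 genes at an adjusted p under 0.05. At an unadjusted p under 0.05 it had 1 transitional, 2 type 1 and 4 alveolar macrophage genes, and DESeq2 called 1 type 1 and 4 alveolar macrophage genes. Over all genes these shares were 11.8% in edgeR and 3.63% in DESeq2. The secretory airway median was also positive in limma-voom (0.87).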
